A study of Mus musculus with 24 samples.

Results

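The genes described here encode the proteasome, and were taken as every row of the expression table whose symbol has the letters Psm, then a, b, c, d or e, then a number, leaving out the immunoproteasome genes Psmb8, Psmb9 and Psmb10. This gave 42 genes of the 17094 in the table. By the role of their protein they were 8 core alpha genes, 8 core beta genes, 6 ATPase genes and 3 other genes of the base, 8 lid genes, 3 chaperone genes of the base and 5 genes of activators and their copies. The remaining gene, Psmc3ip, matches the pattern by its name but encodes a factor of meiotic recombination and no proteasome subunit, and is given apart. The rule itself uses no measured value.

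RNA was measured in wild-type (WT) mouse primary chondrocytes, the cells of cartilage, by sequencing of poly(A)-selected RNA from whole cultures. The cells were digested out of cartilage with collagenase II and DNase I and grown in the lower chamber of a transwell plate, with no other cells (normal culture) or sharing the plate with primary dermal fibroblasts, which were not sequenced (co-culture). Some wells received IL-1β at 10 ng/ml once the cells had been attached for 24 h and others received none, and collection followed 36 h or 72 h later. These 3 factors gave 8 groups of 3 libraries, 24 in all: normal culture without IL-1β, normal culture with IL-1β, co-culture without IL-1β and co-culture with IL-1β, each at 36 h and at 72 h. All groups were of the same genotype. IL-1β is a cytokine of joint inflammation. Nothing states whether the 3 libraries of a group are from different cultures or mice, and the p-values therefore reflect the spread among libraries alone, which may be technical. No animal age, strain or co-culture medium was found in the labels.

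The proteasome is the large protease that degrades proteins tagged with ubiquitin. Its core particle is a barrel of stacked rings in which alpha subunits form the gate and 3 of the beta subunits, Psmb5, Psmb6 and Psmb7, carry the cutting sites. A regulatory cap sits on the core: its base holds a ring of ATPases that unfold the substrate, and its lid removes the ubiquitin chain. The cap can be replaced by activators, of which Psme1 and Psme2 form a ring together, Psme3 forms a nuclear ring of its own and Psme4 encodes a large single-chain activator. In many cell types the subunit genes are expressed together, and the transcription factors NFE2L1 and NFE2L2 are known to raise them.

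The promoters of 5 members are printed because the results below turn on these genes. Psmd8, Psmd11 and Psmd10 were higher with IL-1β in every culture and time, Psmd14 had the largest single change of the lid over time, and Psmb5 encodes a catalytic subunit. Each line gives the 250 bases before the RefSeq start, on the gene's strand, 5′ to 3′, from build GRCm38.p6, and capitals mark motif matches. The windows lie at chr7:29180674-29180923 (minus strand), chr11:80428365-80428614 (plus strand), chrX:140956712-140956961 (minus strand), chr2:61711444-61711693 (plus strand) and chr14:54617996-54618245 (minus strand).
Psmd8: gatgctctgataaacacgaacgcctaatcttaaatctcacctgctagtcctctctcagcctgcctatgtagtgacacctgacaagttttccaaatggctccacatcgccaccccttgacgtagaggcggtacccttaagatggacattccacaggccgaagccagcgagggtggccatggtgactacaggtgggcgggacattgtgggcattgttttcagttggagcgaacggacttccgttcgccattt
Psmd11: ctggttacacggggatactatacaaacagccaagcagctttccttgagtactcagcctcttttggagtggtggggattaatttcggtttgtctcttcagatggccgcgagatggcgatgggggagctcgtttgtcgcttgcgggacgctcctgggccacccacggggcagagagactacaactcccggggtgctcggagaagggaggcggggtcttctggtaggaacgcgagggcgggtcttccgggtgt
Psmd10: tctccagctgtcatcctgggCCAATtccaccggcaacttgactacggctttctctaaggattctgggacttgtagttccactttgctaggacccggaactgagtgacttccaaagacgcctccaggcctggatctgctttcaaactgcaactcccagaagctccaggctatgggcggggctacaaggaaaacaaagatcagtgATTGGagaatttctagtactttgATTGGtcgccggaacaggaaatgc
Psmd14: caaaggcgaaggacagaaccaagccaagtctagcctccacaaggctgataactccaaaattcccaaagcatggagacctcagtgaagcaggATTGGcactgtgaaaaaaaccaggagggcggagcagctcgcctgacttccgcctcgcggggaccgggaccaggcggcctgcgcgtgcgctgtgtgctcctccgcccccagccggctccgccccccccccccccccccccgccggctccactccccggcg
Psmb5: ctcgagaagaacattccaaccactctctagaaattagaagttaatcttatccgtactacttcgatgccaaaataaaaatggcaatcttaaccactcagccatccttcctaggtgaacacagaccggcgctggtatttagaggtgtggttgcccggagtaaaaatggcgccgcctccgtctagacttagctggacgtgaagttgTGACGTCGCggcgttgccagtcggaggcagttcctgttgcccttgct
The motifs searched on both strands were CCAAT (the CCAAT box), TGACNNNGC (the core of the antioxidant response element), TGANTCA (the AP-1 site) and GGGANNTCC (a form of the NF-kB site). TGACNNNGC and TGANTCA can share bases. The Psmd10 window held 3 CCAAT matches, the Psmd14 window held 1, and the Psmb5 window held 1 TGACNNNGC match that began 47 bases before the start. The windows of Psmd8 and Psmd11 held none of these letters. Of the 42 members, 35 had a promoter in the table, with 38 windows. CCAAT was in 36.8% of these windows and in 33.8% of all 32851 windows of the same length. TGACNNNGC was in 13.2% against 10.2%, TGANTCA in 2.63% against 6.75%, and GGGANNTCC in 5.26% against 3.59%. A match is a run of letters and not a measured site.

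Values are FPKM, fragments scaled to gene length and to the mapped fragments of the library. The sum per library ranged from 438242 to 506621, with 11335 to 11607 genes at 1 FPKM or more, and the read depth was not given. The 2 largest sums were number 3 of normal culture with IL-1β and number 3 of co-culture with IL-1β, both at 72 h. In each of these groups number 3 was the highest library for 28 of 31 core, base and lid genes, so results that rest on them are given with and without both. The spread of the members within groups was 0.154 and 0.108 (residual SD, log2) there, against 0.0555 to 0.075 in the other 6 groups. The cartilage markers were present: Col2a1 averaged 302 FPKM in untreated normal culture at 36 h, and 6 to 8 of 9 chondrocyte markers averaged at least 1 FPKM in each group, with Matn1 the lowest and listed at 0 in co-culture with IL-1β at 36 h. The summed level of those 9 markers was 768 to 1125 FPKM without IL-1β and 284 to 327 FPKM with it. The 7 skeletal muscle markers summed to 185 to 259 FPKM at 36 h and 35.4 to 115 FPKM at 72 h. The 7 macrophage and myeloid markers summed to 46.2 to 76.1 FPKM at 36 h and 84.0 to 151 FPKM at 72 h, with Ptprc the lowest in 7 of the 8 groups. The 4 endothelial markers summed to at most 2.01 FPKM. The 7 dermal fibroblast markers, some of which connective tissue cells in general express, summed to 479 to 622 FPKM without IL-1β and 249 to 330 FPKM with it. In whole cultures fewer cells of a type and less RNA per cell cannot be told apart, and the part of these markers in the results below was not tested.

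Levels per length showed the core genes highest. In untreated normal culture at 36 h the members above 5 FPKM had a median of 112 FPKM among core alpha genes and 111 FPKM among core beta genes. Core alpha genes ran from 74.9 ± 1.63 FPKM (SD, n = 3) for Psma1 to 156 ± 5.26 FPKM for Psma3, and core beta genes from 88.7 ± 2.61 FPKM for Psmb6 to 155 ± 2.61 FPKM for Psmb4. The base ATPases had a median of 82.0 FPKM, from Psmc4 at 51.5 ± 2.81 FPKM to Psmc3 at 92.0 ± 7.93 FPKM. Among the other base genes Psmd1 and Psmd2 encode the large scaffold proteins and Psmd4 encodes a ubiquitin receptor; they ran from 54.9 FPKM for Psmd1 to 102 FPKM for Psmd2. The lid genes had a median of 58.1 FPKM, from Psmd11 at 43.8 ± 0.956 FPKM to Psmd8 at 94.3 ± 5.65 FPKM. The 3 base chaperones, which help to assemble the ATPase ring and are absent from the finished particle, were lower, with Psmd9 at 11.6 ± 1.30 FPKM, Psmd10 at 15.5 ± 0.160 FPKM and Psmd5 at 29.4 ± 1.77 FPKM. Of the activators, Psme4 was at 22.1 FPKM, Psme3 at 43.1 FPKM, Psme1 at 56.0 FPKM and Psme2 at 73.9 FPKM.

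A few members were near 0. Psmb11, the beta subunit of the thymus proteasome, ranged from 0 to 0.13 FPKM over the 24 libraries, and Psme2b, a copy of Psme2, from 0 to 0.88 FPKM. Neither reached 1 FPKM in 3 libraries, so neither was tested, and the tested members number 40 of 42. Psma8, the alpha subunit of the testis proteasome, was tested at 0.54 to 1.82 FPKM. Reads of Psme2 and Psme2b could be shared, so the values of that pair are uncertain. Where counting ignores strand, genes on opposite strands can share reads too: exons of Psmd9 shared 25.5% of their bases with Gm26745, those of Psmc3ip 21.2% with Mlx, those of Psmb7 11.8% with Nek6 and those of Psmd13 10.1% with Sirt3, all on the opposite strand. Whether the counting used strand was not given.

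Time gave the most uniform change. From 36 h to 72 h nearly the whole core, base and lid rose in all 4 conditions, Psme3 rose with them, and Psme1 fell. Changes were tested with limma on log2(FPKM + 1), with p-values adjusted over 12178 tested genes (Benjamini-Hochberg) and called under 0.05. In untreated normal culture 30 of 40 members were higher and 2 lower at 72 h, and 58.4% of all tested genes were called. With IL-1β in normal culture 35 were higher and 3 lower (69.1% of all genes called). In untreated co-culture the counts were 35 and 2 (61.5%), and in co-culture with IL-1β 34 and 1 (64.3%). The shares of all genes called higher were 33.1%, 37.1%, 36.6% and 35.4% in the same order, and the shares called lower 25.3%, 32.0%, 24.9% and 28.9%. The median log2 change of the members was 0.27, 0.46, 0.39 and 0.45, against 0.03, 0.02, 0.05 and 0.02 over all tested genes. The 4 comparisons use separate libraries. Higher in all 4 were 30 of 40 members, and 18.8% of all tested genes. Without both number 3 libraries of 72 h the IL-1β conditions gave 37 and 36 called members, against 38 and 35 with them. The summed muscle markers, lower at 72 h, and the summed myeloid markers, higher at 72 h (values above), moved with this comparison. Without IL-1β the chondrocyte sum was 768 to 799 FPKM at 36 h and 1060 to 1125 FPKM at 72 h in normal culture. In untreated co-culture it was 846 to 873 FPKM at 36 h and 1034 to 1100 FPKM at 72 h. With IL-1β this sum overlapped between the times. Col2a1 was higher at 72 h in all 4 conditions, and Comp and Col11a1 were lower. Their part in the result was not tested.

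**Figure D1:**
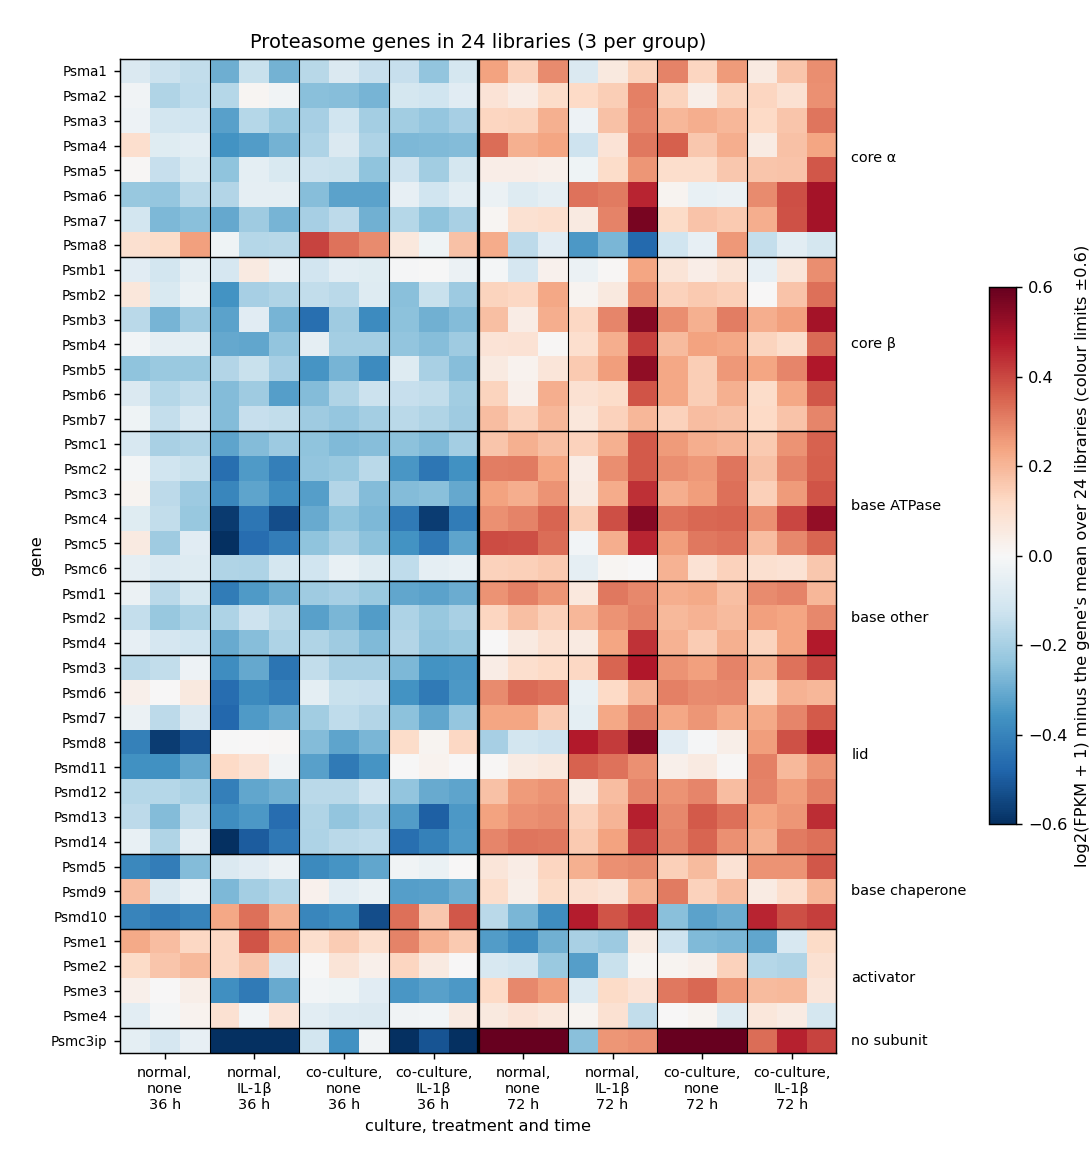
Each row is a tested proteasome gene, grouped by role, and each column a library, with 3 libraries for each of 8 groups. Colour gives log2(FPKM + 1) minus the gene's mean over the 24 libraries, cut at ±0.6. Psmc3ip runs past the scale, as do single libraries of genes such as Psmc5 and Psmd14. The 12 libraries of 72 h stand to the right of the thick line and are mostly above the gene mean in the core, base and lid, while Psme1 runs the other way and Psmd10 follows IL-1β.

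The base genes rose in nearly every condition. All 6 ATPase genes were higher at 72 h in all 4 conditions, with median log2 changes of 0.37, 0.62, 0.51 and 0.59 in the order above. Psmc4, an ATPase of the ring, read 54.28, 51.51 and 48.67 FPKM at 36 h and 69.37, 70.53 and 73.16 FPKM at 72 h in untreated normal culture. With IL-1β in normal culture it read 38.03, 42.06 and 39.20 FPKM at 36 h and 63.54, 75.08 and 83.95 FPKM at 72 h. The libraries of the 2 times did not overlap in either condition. Its log2 change was 0.46 ± 0.074 (SE) without and 0.88 ± 0.074 with IL-1β in normal culture, and 0.61 ± 0.074 and 0.87 ± 0.074 in co-culture, with a limma adjusted p of at most 1.71e-05. Psmc5, another ATPase, changed by 0.45, 0.71, 0.52 and 0.64 on the log2 scale. Psmc6 was the ATPase with the least change, 0.22, 0.14, 0.23 and 0.20, and its call in normal culture with IL-1β was lost under TPM scaling (0.08). Of the other base genes Psmd1 and Psmd2 were higher in all 4 conditions, and the ubiquitin receptor gene Psmd4 in 3, with 0.14 ± 0.075 and an adjusted p of 0.113 (limma) in untreated normal culture.

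The lid rose as a whole. All 8 lid genes were higher at 72 h in every condition, with medians of 0.37, 0.52, 0.41 and 0.56. Psmd14 (chr2:61711694-61800376), the enzyme that cuts the ubiquitin chain from the substrate, had the largest single change. In untreated normal culture it read 67.48, 61.39 and 67.19 FPKM at 36 h and 85.77, 87.50 and 86.95 FPKM at 72 h. In normal culture with IL-1β it read 45.22, 49.08 and 51.58 FPKM at 36 h and 77.92, 82.61 and 92.89 FPKM at 72 h. Every 72 h library was above every 36 h library of its condition. The log2 change was 0.40 ± 0.056 and 0.78 ± 0.056 (SE), or 1.33-fold and 1.74-fold in FPKM, with limma adjusted p of 2.42e-06 and 6.26e-11. Psmd13 and Psmd3, structural lid genes, changed by 0.45 and 0.20 without and by 0.66 and 0.69 with IL-1β in normal culture. The smallest lid changes in the IL-1β conditions were those of Psmd11, 0.25 in both cultures.

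The core rose less evenly. Of 15 tested core genes 11, 13, 13 and 13 were higher at 72 h in the order above. Psmb5, the beta subunit with chymotrypsin-like activity, read 97.83, 99.16 and 99.28 FPKM at 36 h and 120.20, 117.63 and 121.88 FPKM at 72 h in untreated normal culture. In co-culture with IL-1β it read 109.84, 101.18 and 96.94 FPKM at 36 h and 136.80, 142.35 and 161.90 FPKM at 72 h. The times did not overlap in either. Its log2 change was 0.28 ± 0.071, 0.48 ± 0.071, 0.55 ± 0.071 and 0.51 ± 0.071 (SE). Psmb6, the beta subunit with caspase-like activity, changed by 0.26, 0.46, 0.39 and 0.40, and Psmb7, the beta subunit with trypsin-like activity, by 0.26, 0.32, 0.38 and 0.38. Psmb3, a structural beta gene, changed by 0.36, 0.54, 0.61 and 0.58. Psmb1, also without a cutting site, was called in no condition: its changes were 0.05, 0.10, 0.15 and 0.11, each ± 0.067 (SE), with limma adjusted p from 0.0625 to 0.531. Psma5 and Psmb4 were higher in the other 3 conditions but not in untreated normal culture (0.11 ± 0.066 and 0.10 ± 0.064). Psma8, at about 1 FPKM, was lower in 2 conditions (-0.24 and -0.31), calls lost without number 1 of the 36 h or number 3 of the 72 h libraries in normal culture with IL-1β (-0.19 each) and without number 1 of the 72 h libraries in untreated co-culture (-0.23).

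**Figure D2:**
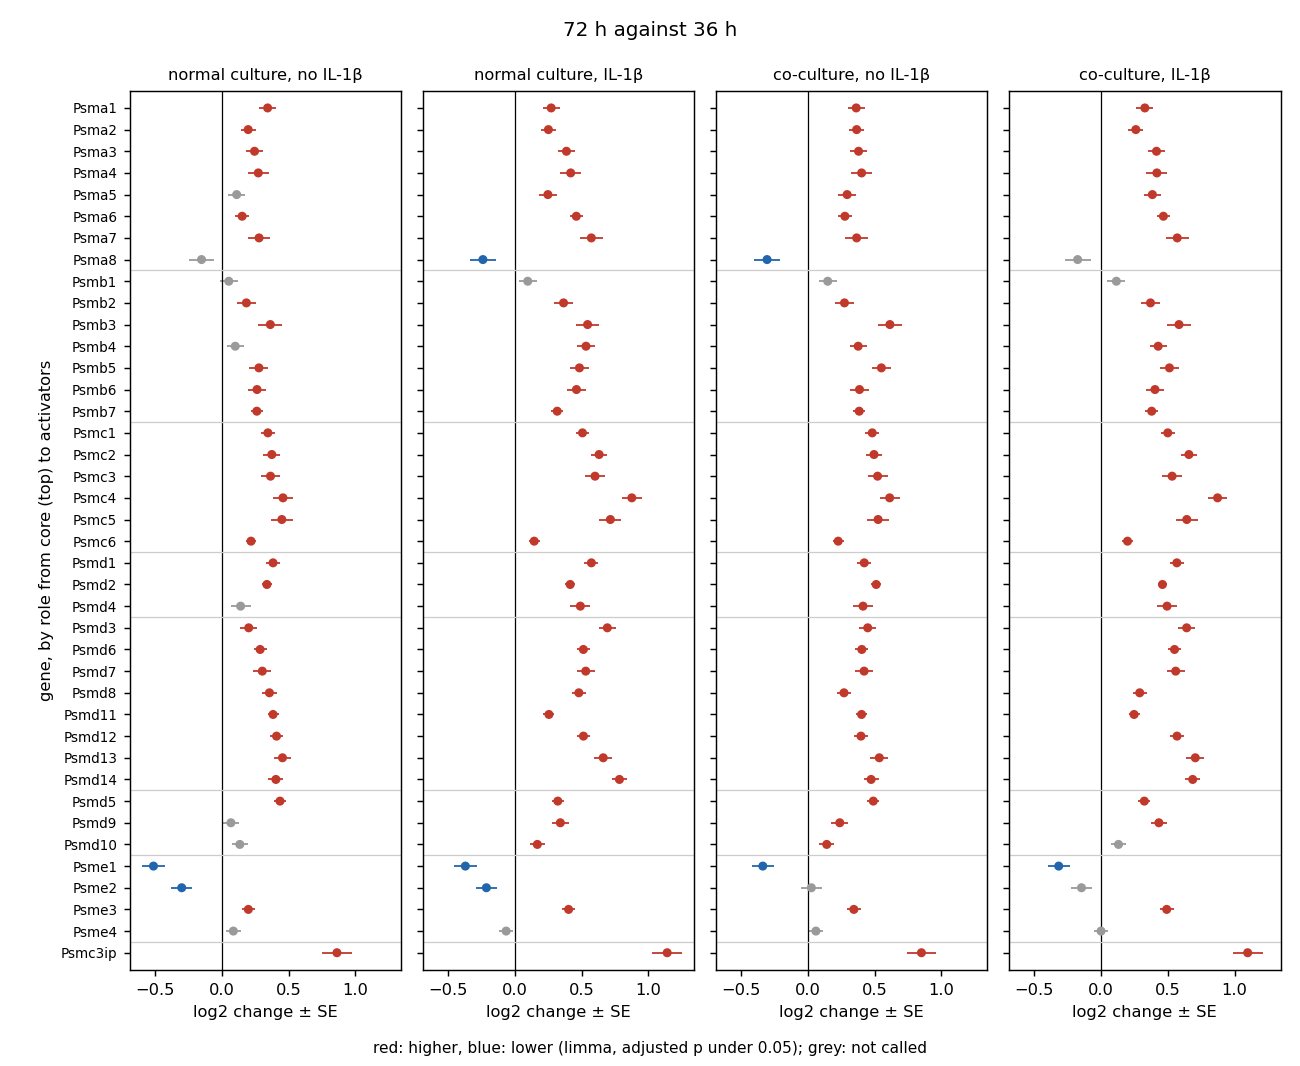
Points are the log2 change of each tested gene from 36 h to 72 h with bars of 1 SE, in 4 panels by culture and IL-1β; red is higher and blue lower at a limma adjusted p under 0.05, and grey is not called. Points of base and lid genes lie to the right of 0 in all panels, from 0.14 upward, while Psme1 lies to the left in all of them, between -0.51 and -0.32.

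The chaperones and activators went separate ways over time. Psmd5, a chaperone of the base, was higher at 72 h in all 4 conditions (0.44, 0.32, 0.49 and 0.32). Psmd10, also known as gankyrin, changed by 0.13 to 0.17 and was called in 2 of 4, both calls being lost under TPM scaling (0.11 and 0.12). They were also lost without number 3 of the 36 h libraries with IL-1β in normal culture (0.14) and, in untreated co-culture, without number 3 of 36 h (0.09) or any library of 72 h (0.12 to 0.16). Psme1 (chr14:55578123-55581529, plus strand) and Psme2 (chr14:55587441-55591113, minus strand) are neighbours that encode the paired ring activator, a target of interferon. Psme1 read 57.96, 56.20 and 53.90 FPKM at 36 h and 38.89, 37.74 and 40.24 FPKM at 72 h in untreated normal culture. It fell by 0.51, 0.37, 0.34 and 0.32 on the log2 scale (SE 0.084 each), with limma adjusted p from 1.81e-05 to 0.00221. Without number 1 of the 72 h libraries the last value was -0.21. Psme1 was the only member lower in all 4 conditions, as were 13.1% of all tested genes. Psme2 fell by 0.30 and 0.21 in normal culture, the latter with overlapping libraries and not called without number 1 of the 72 h libraries (-0.13) or number 1 or 2 of the 36 h libraries (-0.18 and -0.16), and gave 0.02 and -0.15 in co-culture, not called. Psme3, of the nuclear activator, rose by 0.20 ± 0.051, 0.40 ± 0.051, 0.34 ± 0.051 and 0.49 ± 0.051. Psme4 was called in none, with changes from -0.07 to 0.09 (SE 0.054).

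Psmc3ip, the gene that is no subunit, rose more than any member of the particle, from 4.50, 4.34 and 4.54 FPKM at 36 h to 8.55, 9.65 and 8.60 FPKM at 72 h in untreated normal culture. Its log2 change was 0.86, 1.14, 0.85 and 1.10 (SE 0.11 each).

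The size of the rise with and without IL-1β was compared next. The difference between the rise with and without IL-1β, which is the same quantity as the difference between the IL-1β effect at 72 h and at 36 h, was called for 11 of 40 members, all higher, and 45.4% of all tested genes were called, 23.7% higher and 21.6% lower. The members' share called in either direction lies below that of all genes, as none was lower. The share called higher, 27.5%, is close to that of all genes. The 11 called members were the core genes Psma6 and Psmb4, the base genes Psmc2, Psmc4, Psmd1 and Psmd4, the lid genes Psmd3, Psmd6 and Psmd14, the chaperone Psmd9 and the activator Psme3. Psmd3 had the largest difference, 0.49 ± 0.092 (SE) on the log2 scale, with a limma adjusted p of 0.000171. Psmb4 had 0.43 ± 0.091, Psmc4 0.42 ± 0.10 and Psmd14 0.38 ± 0.080. Psmd8 gave 0.12 and Psmd10 0.03, neither called. The calls of Psmc2, Psmd1, Psmd9 and Psme3 were each lost when some single libraries were left out (0.14 to 0.23), and those of the other 7 were kept when any 1 library was left out. Without number 1 of normal culture with IL-1β at 72 h 24 members were called, and without both number 3 libraries 9. The shares of all genes called in these fits are not given here. In co-culture 3 members were called, a smaller share than the 28.8% of all genes (14.1% higher, 14.8% lower): Psma6 (0.19 ± 0.071) and Psmd14 (0.21 ± 0.080) higher, Psmd5 (-0.16 ± 0.062) lower, with limma adjusted p of 0.0493, 0.0485 and 0.0494. Leaving out any of the 12 co-culture libraries but number 1 with IL-1β at 72 h gave 0 or 1 calls, and leaving out that library gave 4.

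IL-1β itself moved the members in both directions. A small set, the lid genes Psmd8 and Psmd11 and the chaperones Psmd10 and Psmd5, was higher with IL-1β in all 4 comparisons, while most other called members were lower at 36 h. At 36 h in normal culture 4 of 40 members were higher and 19 lower with IL-1β, and 67.5% of all tested genes were called, 25.9% higher and 41.5% lower. At 36 h in co-culture 7 were higher and 10 lower, with 58.7% of all genes called (23.4% higher, 35.3% lower). At 72 h in normal culture the counts were 12 and 6, with 63.4% of all genes called (23.1% higher, 40.3% lower). At 72 h in co-culture they were 6 and 3, with 49.1% called (18.5% higher, 30.6% lower). The members' median log2 change was -0.14 and -0.01 at 36 h and 0.02 and 0.04 at 72 h in the same order of cultures, against -0.09, -0.06, -0.08 and -0.06 over all tested genes. Higher in all 4 comparisons were 4 members, or 10% of those tested, and 11.3% of all genes. Lower in all 4 were 3 members, or 7.5%, and 18.2% of all genes. The share higher is close to that of all genes, and the share lower lies below it. In sum the chondrocyte and the dermal fibroblast markers were lower with IL-1β (values above). Ly6a, also lower, made up most of the fibroblast sum, while Crabp1, Twist2 and Pi16 were higher with IL-1β in each comparison and Dpt lower. The myeloid sum was higher with IL-1β at both times, at 131 to 151 against 84.0 to 94.6 FPKM at 72 h. Lyz2, which made up most of this sum, S100a8 and Itgam were higher in each comparison. Ptprc, Adgre1 and Csf1r were lower in each, and Cd68 was higher at 36 h and lower at 72 h. The muscle sum was higher with IL-1β at 72 h (75.7 to 115 against 35.4 to 56.9 FPKM). At 36 h in normal culture every library with IL-1β had a higher muscle sum than every library without. In co-culture at 36 h the muscle sums overlapped. The part of these markers in the result was not tested.

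The split between higher and lower depended on the scaling. Rescaling each library to TPM, a fixed sum, moved the median of all genes in the IL-1β comparison at 72 h in normal culture from -0.08 to -0.20. It gave 4 higher and 27 lower members at 36 h and 5 and 18 at 72 h in normal culture. In co-culture it gave 5 and 18 at 36 h and 4 and 8 at 72 h. Scaling by the median of ratios gave 7 and 15 at 36 h and 17 and 3 at 72 h in normal culture, and 8 and 6 at 36 h and 9 and 0 at 72 h in co-culture. Without both number 3 libraries the split at 72 h in normal culture was 8 and 9. Psmd8, Psmd11 and Psmd10 were called higher in all 4 comparisons under both scalings.

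Psmd8 (chr7:29174188-29180701, minus strand) encodes a lid subunit, and its promoter is printed above. In normal culture at 36 h it read 100.57, 89.62 and 92.70 FPKM without and 133.45, 133.68 and 134.49 FPKM with IL-1β. At 72 h it read 116.29, 123.64 and 122.67 FPKM without and 186.19, 179.20 and 195.72 FPKM with IL-1β. In co-culture the values were 111.24, 107.22 and 110.28 against 144.46, 135.29 and 145.81 FPKM at 36 h, and 127.28, 132.84 and 136.85 against 159.09, 174.34 and 188.27 FPKM at 72 h. All libraries with IL-1β were above all those without at the same time. The log2 change was 0.50 ± 0.054, 0.63 ± 0.054, 0.37 ± 0.054 and 0.39 ± 0.054 (SE) for normal culture at 36 h and 72 h and co-culture at 36 h and 72 h, with limma adjusted p of at most 4.28e-06.

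Psmd11 (chr11:80428615-80473248, plus strand), a lid subunit gene, was the lowest of the lid in untreated normal culture at 36 h. It read 43.21, 43.22 and 44.87 FPKM there without and 60.81, 59.35 and 54.97 FPKM with IL-1β. At 72 h it read 56.17, 57.71 and 58.27 FPKM without and 71.52, 70.18 and 67.65 FPKM with IL-1β. The groups did not overlap in either culture or time. Its log2 change was 0.41 ± 0.041 and 0.28 ± 0.041 in normal culture and 0.38 ± 0.041 and 0.22 ± 0.041 in co-culture (SE), with limma adjusted p of at most 0.000106. Under TPM scaling the values at 72 h were 0.16 and 0.14, still called.

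Psmd10 (chrX:140948429-140956728, minus strand), the ankyrin-repeat chaperone of the base, had the largest IL-1β change of the subunits and helpers. In normal culture it read 15.58, 15.29 and 15.55 FPKM without and 24.62, 26.42 and 24.29 FPKM with IL-1β at 36 h. At 72 h it read 18.49, 17.03 and 15.81 FPKM without and 29.20, 27.34 and 28.40 FPKM with IL-1β. In co-culture the 3 libraries with IL-1β lay between 23.37 and 27.24 FPKM at 36 h against 14.09 to 15.91 FPKM without, and between 27.45 and 28.90 FPKM at 72 h against 16.46 to 17.31 FPKM. The groups stood clear of each other throughout. The log2 change was 0.66 ± 0.058, 0.70 ± 0.058, 0.72 ± 0.058 and 0.71 ± 0.058 (SE), or 1.62-fold to 1.69-fold in FPKM, with limma adjusted p of at most 1.11e-09. Psmd5 was 1.12-fold to 1.27-fold higher in FPKM (0.29, 0.17, 0.33 and 0.17 on the log2 scale), and its calls at 72 h were lost under TPM scaling (0.05 and 0.08). The remaining chaperone, Psmd9, was lower at 36 h in both cultures (-0.23 and -0.29, the former -0.15 without number 1 of the untreated libraries) and not called at 72 h (0.04 and -0.09).

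**Figure D3:**
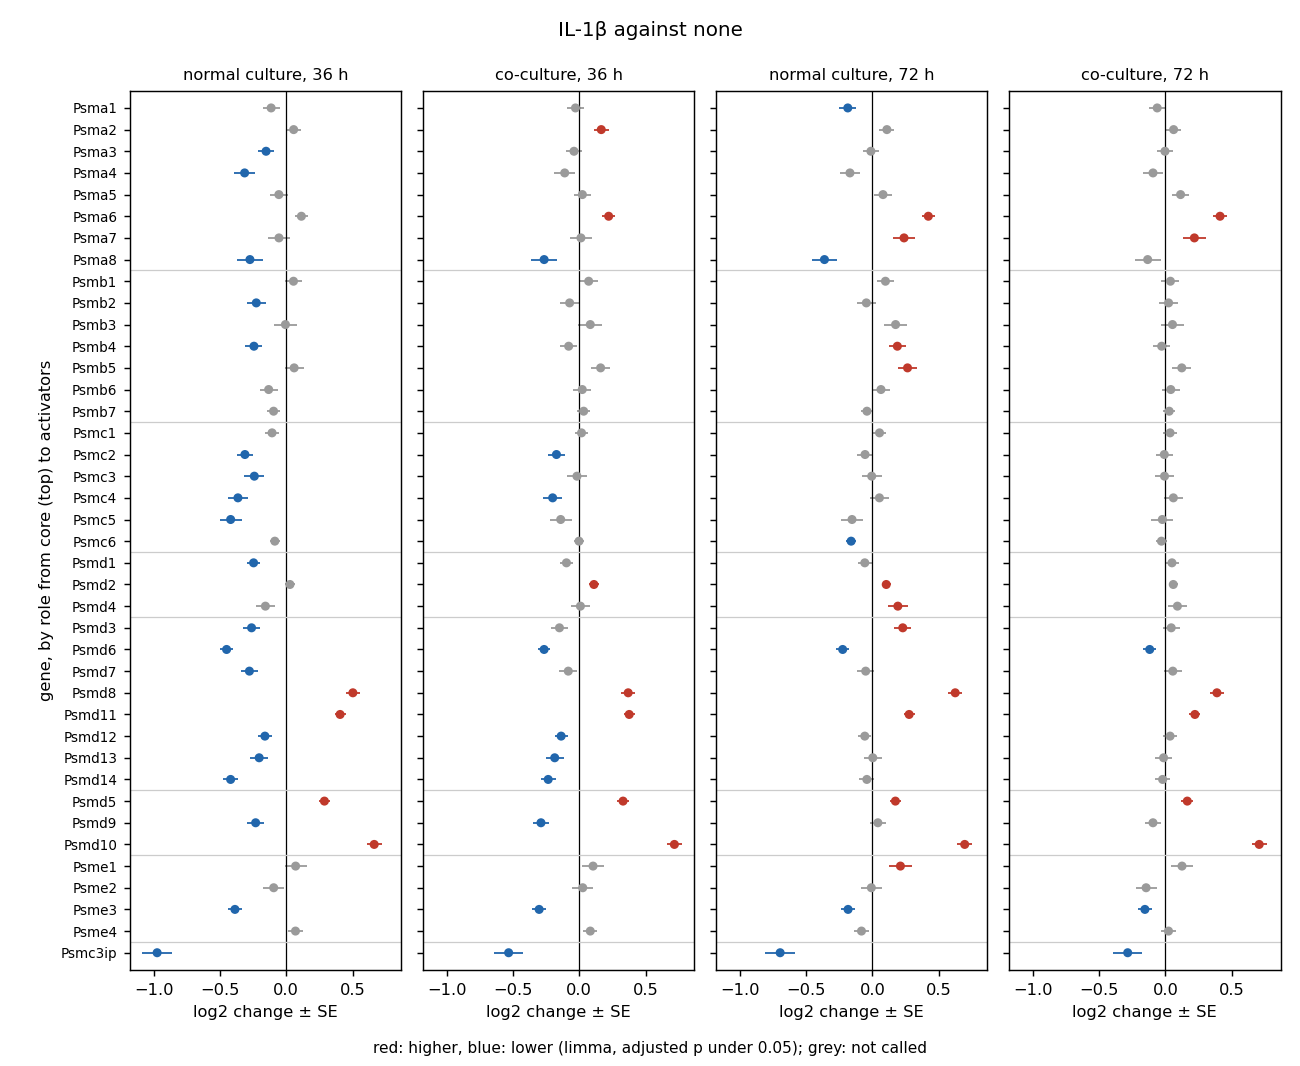
Points are the log2 change of each tested gene with IL-1β against none, with bars of 1 SE, in 4 panels by culture and time; red is higher, blue lower at a limma adjusted p under 0.05 and grey not called. Psmd8, Psmd11 and Psmd10 lie to the right in all panels, Psmd10 between 0.66 and 0.72, while Psmd6 and Psme3 lie to the left in all of them.

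Members lower with IL-1β at 36 h included base ATPases and lid genes. In normal culture at 36 h, where 41.5% of all genes were lower, 4 of 6 ATPase genes and 6 of 8 lid genes were lower, and no ATPase gene was higher. Of the whole base 5 of 9 genes were lower, and 8 under TPM and 5 under median-of-ratios scaling. Of the lid 6 were lower under TPM and 4 under median-of-ratios scaling. Psmc5 fell by 0.42 ± 0.083 (SE), Psmc4 by 0.36 ± 0.074, Psmc2 by 0.31 ± 0.063 and Psmc3 by 0.24 ± 0.074 on the log2 scale, the last not called without number 1 of the untreated libraries (-0.17). Psmd14 fell by 0.42 ± 0.056, with a limma adjusted p of 8.84e-07: its 3 libraries with IL-1β were at 45.22 to 51.58 FPKM and those without at 61.39 to 67.48 FPKM. In co-culture at 36 h it fell by 0.23 ± 0.056, and at 72 h it gave -0.04 and -0.02, not called. Of the core, 5 of 15 genes were lower in normal culture at 36 h, among them Psma4 (-0.31 ± 0.078) and Psmb4 (-0.24 ± 0.064), and none was higher. That share of the core is below the share of all genes, and 9 core genes were lower under TPM and 3 under median-of-ratios scaling, with 1 higher under the latter.

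Psmd6 (chr14:14112174-14120984, minus strand), a lid subunit gene, was lower with IL-1β in all 4 comparisons. In normal culture at 36 h it read 70.93, 69.41 and 72.32 FPKM without and 50.21, 52.92 and 51.74 FPKM with IL-1β, and at 72 h 84.57, 88.14 and 87.29 FPKM without and 67.35, 75.36 and 80.00 FPKM with IL-1β. The groups did not overlap. Its log2 change was -0.45 ± 0.048, -0.22 ± 0.048, -0.27 ± 0.048 and -0.12 ± 0.048 (SE) for normal culture at 36 h and 72 h and co-culture at 36 h and 72 h. Under TPM scaling the values at 72 h were -0.35 and -0.21, and under median-of-ratios scaling the former was -0.14. The last had a limma adjusted p of 0.0463 and was lost under median-of-ratios scaling (-0.07), and when any of 5 co-culture libraries of 72 h was left out: number 1, 2 or 3 without IL-1β, or number 1 or 3 with it (-0.13 to -0.09). Psmd6 and Psmd8 thus moved in opposite directions under IL-1β within the same lid.

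Psme3 (chr11:101316213-101323537, plus strand) was the only activator gene lower in all 4. It read 43.31, 42.42 and 43.49 FPKM without and 32.59, 31.37 and 34.20 FPKM with IL-1β in normal culture at 36 h, with no overlap. Its log2 change was -0.39 ± 0.051, -0.18 ± 0.051, -0.30 ± 0.051 and -0.15 ± 0.051 (SE). Under TPM scaling the values at 72 h were -0.31 and -0.24. Under median-of-ratios scaling both calls at 72 h were lost (-0.10 and -0.11), and in co-culture at 72 h also without number 2 of the untreated libraries or number 3 of those with IL-1β (-0.14 and -0.12). Psme1 was called with IL-1β in 1 of 4 comparisons, normal culture at 72 h (0.21 ± 0.084, limma adjusted p 0.0315), a call lost without number 3 of the IL-1β libraries (0.13), without number 1 or 2 of the untreated libraries (0.21 and 0.19) and under TPM scaling (0.09). Psme2 and Psme4 were called in none, with changes from -0.15 to 0.08.

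Some core genes were higher with IL-1β at 72 h. Psma6, of the alpha ring, read 136.89, 133.03 and 135.32 FPKM without and 176.56, 174.74 and 193.33 FPKM with IL-1β in normal culture at 72 h. The groups did not overlap, and the log2 change was 0.42 ± 0.051 (SE, limma adjusted p 2.25e-07). It was 0.41 ± 0.051 in co-culture at 72 h, 0.22 ± 0.051 in co-culture at 36 h (0.15 under TPM scaling) and 0.11 ± 0.051 in normal culture at 36 h, the last not called (adjusted p 0.0508). Psma7, also of the alpha ring, was called higher at 72 h in both cultures (0.24 and 0.22), with overlapping libraries in normal culture. Both calls were lost under TPM scaling (0.12 and 0.13) and without both number 3 libraries (0.11 and 0.15). In normal culture the call was also lost without number 1 of the untreated libraries (0.21), and without number 1 of the IL-1β libraries the value was 0.37. In co-culture it was lost without any library but number 1 with IL-1β (0.15 to 0.23). Psmb5 was higher in normal culture at 72 h only among the 4 comparisons, at 129.33, 138.24 and 168.08 FPKM with IL-1β against 117.63 to 121.88 FPKM without (0.27 ± 0.071, limma adjusted p 0.00261). Its value was 0.16 without number 3 and 0.14 under TPM scaling, both still called. Whether this differed between the times was not called (0.21, against the difference of 0.31 for Psma6 that was). Psmb6 and Psmb7 were called in none, with changes from -0.13 to 0.06. Psmd4 was higher in normal culture at 72 h (0.19 ± 0.075), where its groups overlapped. The call was lost without number 2 or 3 of the IL-1β libraries (0.19 and 0.10) or number 1 or 2 of the untreated ones (0.17 and 0.20). It was also lost under TPM scaling (0.07) and without both number 3 libraries (0.10).

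Psmc3ip was lower with IL-1β in all 4 comparisons (-0.97 ± 0.11, -0.70 ± 0.11, -0.53 ± 0.11 and -0.28 ± 0.11). In normal culture at 36 h it read 4.50, 4.34 and 4.54 FPKM without and 1.59, 1.98 and 1.78 FPKM with IL-1β. The last of the 4 calls, in co-culture at 72 h, was lost when any of its libraries but number 2 with IL-1β was left out (-0.31 to -0.25). It was also lost with a pseudocount of 0.1 (-0.32), with no filter on low values (-0.28), under median-of-ratios scaling (-0.24) and without both number 3 libraries (-0.29).

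**Figure D4:**
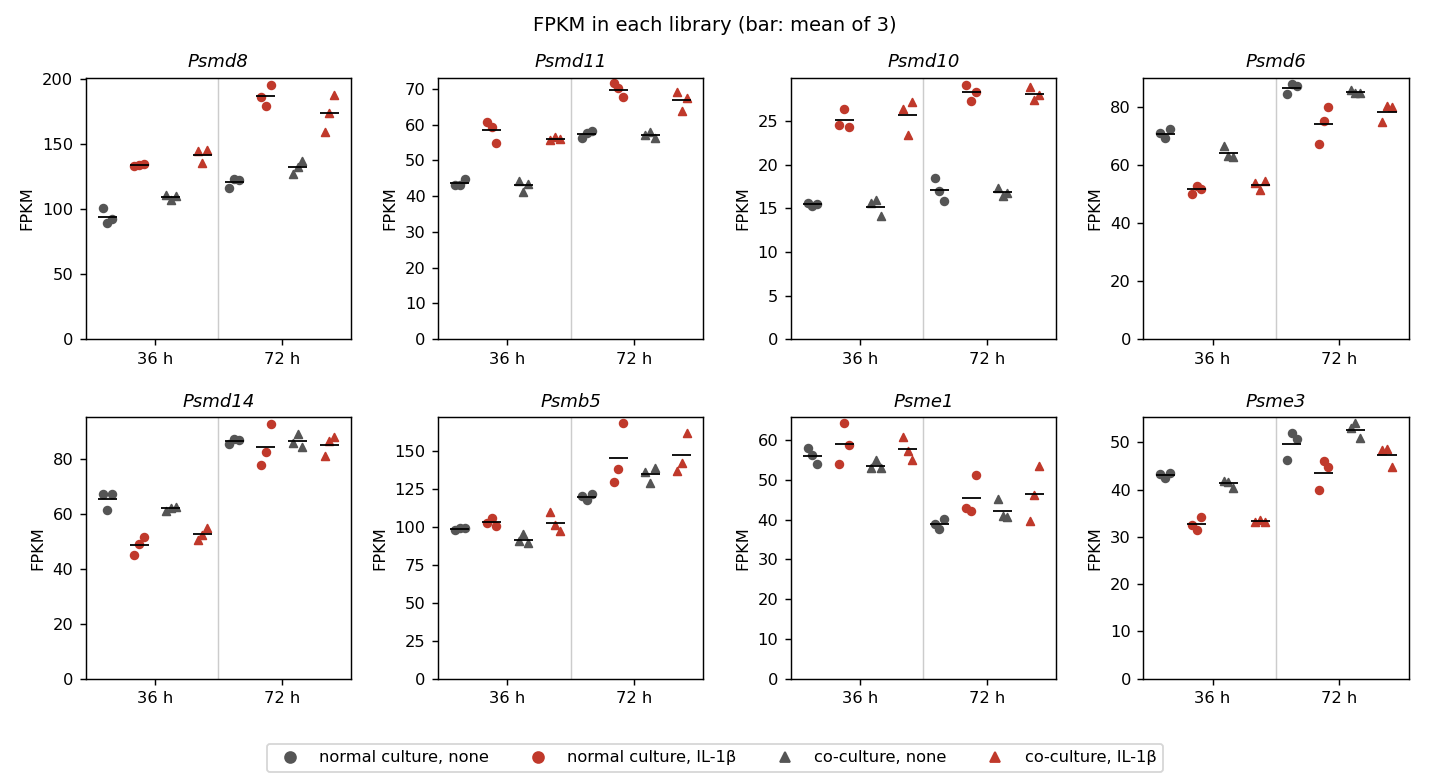
FPKM in each library of 8 members at 36 h and 72 h, with circles for normal culture, triangles for co-culture, grey without and red with IL-1β, and a bar for the mean of 3; each vertical axis starts at 0. In Psmd8, Psmd11 and Psmd10 the red points are above the grey ones at each time, in Psmd6 and Psme3 they are below, and in Psmd14 they are below at 36 h, at 45.22 to 54.81 FPKM, and reach the grey ones at 72 h.

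Co-culture with dermal fibroblasts moved few members in the fit over all groups. Without IL-1β at 36 h 2 of 40 were called, and 15.5% of all tested genes (6.28% higher, 9.20% lower): Psmd8 higher (0.22 ± 0.054 SE, limma adjusted p 0.00806) and Psmd2 lower (-0.13 ± 0.036, adjusted p 0.0186). Psmd8 read 111.24, 107.22 and 110.28 FPKM in co-culture and 100.57, 89.62 and 92.70 FPKM in normal culture, with no overlap. Its call was lost without number 2 of normal culture (0.18). That of Psmd2 was lost under median-of-ratios scaling (-0.10) and without number 1 or 3 of either culture (-0.13 to -0.11). A fit of the compared groups only called 9 members, 1 higher and 8 lower. At 72 h without IL-1β limma called 0 of 40 members and 3.40% of all genes (1.72% higher, 1.68% lower), with 5 members at an unadjusted p under 0.05, and the fit of the compared groups only called 5. The 95% intervals of the members' changes lay between -0.34 and 0.37 there. For the fits of the compared groups only, the shares of all genes called are not given here. Their counts of members therefore cannot be set against a background.

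With IL-1β the co-culture effect was as sparse. At 36 h limma called 0 of 40 members and 10.6% of all genes (6.38% higher, 4.17% lower), with 1 member, Psmc3ip, at an unadjusted p under 0.05 (0.35 ± 0.11, adjusted p 0.0501). At 72 h 1 member was called and 12.5% of all genes (7.22% higher, 5.26% lower): Psmc6, an ATPase, at 102.72, 102.23 and 107.73 FPKM in co-culture against 92.47, 97.00 and 96.33 FPKM in normal culture (0.13 ± 0.040 SE, limma adjusted p 0.0382). Same-numbered libraries deviated together in this comparison, and with the replicate number as a block limma called 0 members, with an adjusted p of 0.167 for Psmc6. The call was also lost without number 1 of normal culture (0.11) or any library of co-culture (0.10 to 0.14). Without number 3 of normal culture 6 members were called. The 95% intervals of the members' changes under IL-1β lay between -0.23 and 0.58 at 36 h and between -0.22 and 0.54 at 72 h.

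No member's IL-1β effect was called as different between the cultures by the test of that difference. At 36 h limma called 0 of 40 members, with 5 at an unadjusted p under 0.05, and 6.96% of all genes (4.73% higher, 2.23% lower). At 72 h it called 0, with 4 at an unadjusted p under 0.05, and 3.11% of all genes (1.68% higher, 1.43% lower). For Psmd8 at 72 h the difference, co-culture minus normal culture, was -0.24 ± 0.076 (SE, adjusted p 0.0817), and for Psmc5 at 36 h 0.28 ± 0.12 (adjusted p 0.167). These values do not show that the effects were equal.

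Across the 24 libraries most members tracked each other, as a description over libraries that share groups. The geometric mean level of 32 core, base and lid genes was 75.7, 69.1, 72.1 and 71.2 FPKM at 36 h (normal culture without and with IL-1β, then co-culture without and with it) and 91.8, 95.3, 94.7 and 98.2 FPKM at 72 h. The correlation of a gene with the mean of the other core, base and lid genes (Pearson r on log2 values, 24 libraries) was 0.99 for Psmc1 and 0.98 for Psma3, Psmc4 and Psmc3. It was 0.51 for Psmd8 and 0.57 for Psmd11, the lowest of the lid. It was 0.16 for Psmd10, -0.42 for Psme2, -0.48 for the core gene Psma8, at about 1 FPKM, and -0.72 for Psme1. Outside the members, the genes most alike the mean of the core, base and lid in these libraries were Phb, Bop1, Pak1ip1, Srprb, Cfl1, Ube2s, Pfn1 and Adrm1, with r from 0.98 to 0.99. Adrm1 encodes a ubiquitin receptor of the proteasome and Ube2s a ubiquitin-conjugating enzyme, Phb encodes prohibitin, and Cfl1 and Pfn1 encode actin-binding proteins.

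The genes around the proteasome gave the following counts, beside which the shares of all genes called in each comparison, given above, are to be read. The immunoproteasome genes Psmb8 and Psmb9, which replace catalytic core subunits under interferon, fell from 36 h to 72 h in all 4 conditions, by 1.20, 1.08, 0.83 and 1.04 for Psmb8 and by 0.92, 1.04, 0.54 and 1.15 for Psmb9 on the log2 scale. Psmb10 was lower with IL-1β in all 4 comparisons (-0.46, -0.24, -0.32 and -0.34). Of 5 interferon targets, 3, 5, 2 and 4 were lower at 72 h. Of the 6 genes of core assembly and inhibition, 2, 5, 4 and 6 were higher at 72 h and none lower, against 33.1%, 37.1%, 36.6% and 35.4% of all genes higher. Pomp, the maturation factor of the core, was higher in all 4 (0.31, 0.43, 0.57 and 0.46). With IL-1β 4 of the 6 were lower at 36 h in normal culture and 5 in co-culture, among them the assembly chaperone genes Psmg1 (-0.50 and -0.22) and Psmg2 (-0.43 and -0.31), and 1 in each culture at 72 h, against 41.5%, 35.3%, 40.3% and 30.6% of all genes lower (36 h in normal culture and co-culture, then 72 h). Of 13 genes of proteasome-bound proteins, 11, 9, 11 and 8 were higher at 72 h and 2, 2, 2 and 0 lower. The deubiquitinase gene Uchl5 was lower with IL-1β in all 4 comparisons (-0.53, -0.47, -0.41 and -0.22).

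RNA of some genes of the route that regulates the subunit genes moved with IL-1β, and the activity of their proteins was not measured. Nfe2l2, which encodes NRF2, was higher in all 4 comparisons (0.90, 0.84, 0.75 and 0.76 for normal culture at 36 h and 72 h and co-culture at 36 h and 72 h), and Nfe2l1 in all 4 (0.16, 0.43, 0.14 and 0.39). Ngly1 and Ddi2, whose products activate NRF1, were lower in all 4 (-0.53, -0.35, -0.38 and -0.25 for Ngly1). The list of this route also held Vcp, Sel1l, Syvn1 and Keap1, whose values are not given here. All 9 NRF2 targets outside the proteasome were higher with IL-1β in each comparison, against 25.9%, 23.1%, 23.4% and 18.5% of all genes. Their median log2 changes were 1.58, 0.88, 1.40 and 0.72. The ubiquitin gene Ubb was lower with IL-1β at 36 h (-0.25 and -0.14) and higher at 72 h (0.44 and 0.22). Of 7 cytosolic chaperone genes, 6, 6, 6 and 5 were higher at 72 h than at 36 h and none lower. The shares of all genes higher there were 33.1%, 37.1%, 36.6% and 35.4%. These lists share libraries with the members, and no test compared them.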

How the data were processed

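Bulk poly(A) RNA of 24 libraries was measured. The authors deposited 1 table of FPKM, scaled to gene length and library, with 17094 genes. Per the submitters' processing notes the genome build was GRCm38. The read aligner, counter, gene annotation and strand setting are not given in the sources used here. No read counts were used, so the depth is unknown and no counting interval is given.

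The 12178 genes reaching 1 FPKM in 3 or more libraries entered one model on the log2(FPKM + 1) scale in limma 3.58.1 (R 4.3.3, trended prior, 1 mean per group, 16 residual degrees of freedom), from which 16 comparisons were drawn. Fold changes on this scale understate the change of genes near 0. Calls required a Benjamini-Hochberg adjusted p, over all tested genes, under 0.05. No replicate block was used. Same-numbered libraries deviated together (correlation over 0.1 for each number) for co-culture against normal culture with IL-1β at 72 h alone, at 0.364, 0.179 and 0.577, and the blocked value stands beside that result.

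The alternatives were a pseudocount of 0.1, no filter (17091 genes), a minimum of 5 FPKM (9346 genes), TPM, median-of-ratios scaling, the compared groups only, those with the replicate block, and leaving out each library. Leaving out both number 3 libraries of the IL-1β groups at 72 h was added after the data were seen. The procedure was tested on simulated data.

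The members and lists were chosen with earlier results of these data known, and no p-value was adjusted over them alone. The rule for named members took, in each role, the tested member with the highest and with the lowest mean change over the 4 IL-1β comparisons, plus Psmb5, Psmb6, Psmb7, Psmd14, Psmd4 and Psme1 to Psme4. Outside the members it took the related lists and the 8 genes with the highest correlation with the mean of the core, base and lid. Other members named, such as Psmc4, Psmd11, Psmd5 and Psmd3, were chosen after their values were seen. Positions are those of GENCODE vM21 (GRCm38), and promoters those of RefSeq (GRCm38.p6). Python 3.11 and matplotlib 3.10.9 drew the figures.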

Additional observations from a re-analysis of the deposited data

Results flagged for a closer look

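The IL-1β effect differed between 72 h and 36 h for 11 of 40 members in normal culture and for 3 of 40 in co-culture, by the test of the difference itself (limma, adjusted p under 0.05). These shares lie below the 45.4% and 28.8% of all tested genes called in either direction. In normal culture the share of members called higher, 27.5%, is close to the 23.7% of all genes. Leaving out 1 library gave 8 to 24 and 0 to 4 members, with the shares of all genes in those fits not given here. All 11 in normal culture were higher at 72 h, and of the 3 in co-culture 2 were higher and 1 lower. Whether the cultures differed in this was not tested.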

How the results depend on the processing

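The 4 counts over time stayed within 1.5 times their value under every alternative run, and left between 30 and 33, 36 and 38, 35 and 37, and 35 and 36 members called when 1 library was left out (normal culture without and with IL-1β, then co-culture without and with it). In the 4 IL-1β comparisons alone, 1957 values of single members under the alternatives were counted as the same. These include every value that changed direction for a member not called in the main fit, even where it gained a call. Of the other values, 111 lost their call and 87 gained one in the main direction. In 1 a called member reversed: Psmd2 with IL-1β in normal culture at 72 h, -0.0177 under TPM.

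For IL-1β in normal culture at 72 h the compared groups only gave 10 and the replicate block 11 members. With 1 library left out the IL-1β counts ranged from 20 to 23 and 14 to 21 in normal culture and from 12 to 17 and 5 to 8 in co-culture (36 h, then 72 h); the 5 came without number 2 of the untreated co-culture libraries. For co-culture without IL-1β at 36 h the counts were 5 under TPM, 1 under median-of-ratios scaling, 9 with the compared groups only, 7 with the block and 1 to 2 leaving out a library. At 72 h they were 5 with the compared groups only, 7 with the block and 0 leaving out a library. For co-culture with IL-1β at 36 h each of pseudocount 0.1, the minimum of 5 FPKM, TPM, median-of-ratios scaling, the compared groups only and the block gave 1, and leaving out a library 0 to 1. At 72 h pseudocount 0.1 gave 2, TPM, median-of-ratios scaling, the compared groups only and the block 0, both number 3 libraries left out 3, and 1 library left out 0 to 6. The interaction at 36 h gave 5 with the compared groups only, 2 with the block and 0 leaving out a library; at 72 h it gave 1 without both number 3 libraries and 0 to 2 leaving out a library. The time dependence of IL-1β in normal culture gave 17 under median-of-ratios scaling, 7 with the block and 8 to 24 leaving out a library. In co-culture it gave 8 with the compared groups only, 6 with the block and 0 to 4 leaving out a library. The shares of all genes called under these alternatives are not given here, and the cause of these shifts was not tested. The unknown read depth limits what can be said of Psma8, Psmb11 and Psme2b, near or under 1 FPKM.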
